A study of Homo sapiens with 6 samples.

Results

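The genes of the proteasome, the protease complex that degrades proteins tagged with ubiquitin, were described in 12Z cells left untreated or treated with chemerin. They were taken by symbol, as every gene named PSMA to PSMG followed by a number, without the immunoproteasome genes PSMB8, PSMB9 and PSMB10. This gave 44 of the 16279 genes measured by RNA-seq. 12Z is an established human line of endometriotic epithelial cells, so each group is a model made of 1 line. The Control libraries (NC in the labels, n = 3) came from cells without treatment. The rhChem157S libraries (rhChemerin in the labels, n = 3) came from cells given 10 ng/mL of the recombinant human protein for 48 h. The labels name no engineered allele in either group, which does not show that the cells carry none, and they name no other agent. The labels call the libraries of a group biological replicates without saying what was cultured separately, so p-values measure the spread between these libraries only.

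The 26S proteasome joins a barrel, the 20S core, to a cap, the 19S regulatory particle. The PSMA genes encode the outer alpha rings that gate the barrel, and the PSMB genes the inner beta rings, of which PSMB5, PSMB6 and PSMB7 make the subunits that cut peptide bonds. The PSMC genes encode the ATPases that unfold the substrate, and the PSMD genes most of the remaining cap, which binds ubiquitin chains and removes them. PSMG genes, with PSMD5, PSMD9 and PSMD10, encode chaperones that help to assemble the particle, and PSME genes and PSMF1 encode alternative caps and an inhibitor of the core. Cells are known to transcribe the subunit genes in concert.

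The libraries held between 35430881 and 38341643 counts. The TMM factors, which correct library size for composition, were 1.04 to 1.05 in Control and 0.898 to 1.00 with rhChem157S, so the 2 groups were scaled differently. Of the 44 genes, 43 passed the filter on low counts, and none passed through 1 group only, since their counts ran from 552 to 34011 over all libraries. PSMB11, which encodes a core subunit known from the thymus, had at most 4 counts in a library and was not tested. The 6 epithelial markers summed to 1594 to 1864 FPKM in Control and 1759 to 1974 FPKM with rhChem157S, most of it from keratins such as KRT8. EPCAM had 0.602, 0.387 and 0.807 FPKM in Control and 0.185, 0.125 and 0.277 FPKM with rhChem157S. CDH1 had 0.381, 0.238 and 0.311 FPKM in Control and 0.201, 0.0859 and 0.1 FPKM with rhChem157S, and both genes were thus low in all libraries and lower in every treated library. MUC1 had 14.4, 13.6 and 10.2 FPKM in Control and 9.85, 6.91 and 6.79 FPKM with rhChem157S (log2 fold change -0.57, edgeR adjusted p = 0.135, DESeq2 adjusted p = 0.0395). The 3 steroid receptor genes ESR1, ESR2 and PGR were all under 1 FPKM, with ESR2 lower in every treated library. PGR went the other way, with 0.234, 0.240 and 0.292 FPKM in Control and 0.270, 0.459 and 0.411 FPKM with rhChem157S. Its log2 fold change was 0.71 (edgeR adjusted p = 0.173), and its groups overlapped. The 4 stromal markers were also abundant, led by COL1A1, and summed to 1077 to 1283 FPKM in Control and 809.9 to 1378 FPKM with rhChem157S. Of the leukocyte markers, PTPRC was at or under 0.053 FPKM, but CD14 had 51.5, 41.1 and 36.9 FPKM in Control and 21.2, 15.2 and 6.64 FPKM with rhChem157S. The 3 endothelial markers summed to 0.448 to 0.691 FPKM in Control and 0.145 to 0.284 FPKM with rhChem157S. CD14 and the endothelial sum, like EPCAM, CDH1 and ESR2, were lower in every treated library than in any Control library. Of the endothelial genes VWF was lower in this way, while PECAM1 and CDH5 overlapped. With TMM scaling KRT8 and KRT19 were higher in every treated library than in any Control library, and by FPKM both overlapped. In bulk RNA, fewer cells of a type and less RNA per cell cannot be told apart, and the part of these markers in the results below was not tested.

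In untreated and treated cells alike, the proteasome genes were well expressed but not at equal levels. FPKM divides the count by a fixed length per gene, so levels set side by side between genes depend on that length. Of the 43 tested genes, 42 had a mean FPKM above the median gene tested. By the mean over all 6 libraries, the highest was PSMA7, an alpha subunit. It had 192 ± 9.67 FPKM (SD, n = 3) in Control and 233 ± 26.6 FPKM (SD, n = 3) with rhChem157S. Next came PSMB4, a beta subunit without catalytic activity, with 195 ± 2.97 FPKM (SD, n = 3) in Control and 205 ± 12.7 FPKM (SD, n = 3) with rhChem157S. Over the 6 libraries their ranges overlapped, and in Control 1 and 2 PSMB4 was the higher. With rhChem157S, PSMD2 had a mean of 223 FPKM, above PSMB4. In rhChem157S replicate 3 PSMD2 was also above PSMA7, at 301 against 264 FPKM. The lowest of the 20S core was PSMA5, with 22.3 ± 0.73 FPKM (SD, n = 3) in Control and 21.4 ± 1.33 FPKM (SD, n = 3) with rhChem157S, and in every library it was the lowest of the 14 core genes. The highest core gene was 8.81 to 12.6 times the lowest within a library. In the 19S particle the lowest was PSMC6, an ATPase, with 9.56 ± 0.244 FPKM (SD, n = 3) in Control and 12.6 ± 1.503 FPKM (SD, n = 3) with rhChem157S, in every library. PSMD2, the scaffold subunit that binds shuttle proteins, was the highest of the 17 cap genes in 5 of 6 libraries, and in Control 1 PSMD8 of the lid was higher. The cap genes spanned 13.4 to 21.0 times within a library. The subunits are needed in equal numbers in each particle, but their mRNA levels were not equal in these libraries. The lowest of all tested was PSMG4, an assembly chaperone, with 2.76 ± 0.284 FPKM (SD, n = 3) in Control and 2.25 ± 0.18 FPKM (SD, n = 3) with rhChem157S.

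**Figure D1:**
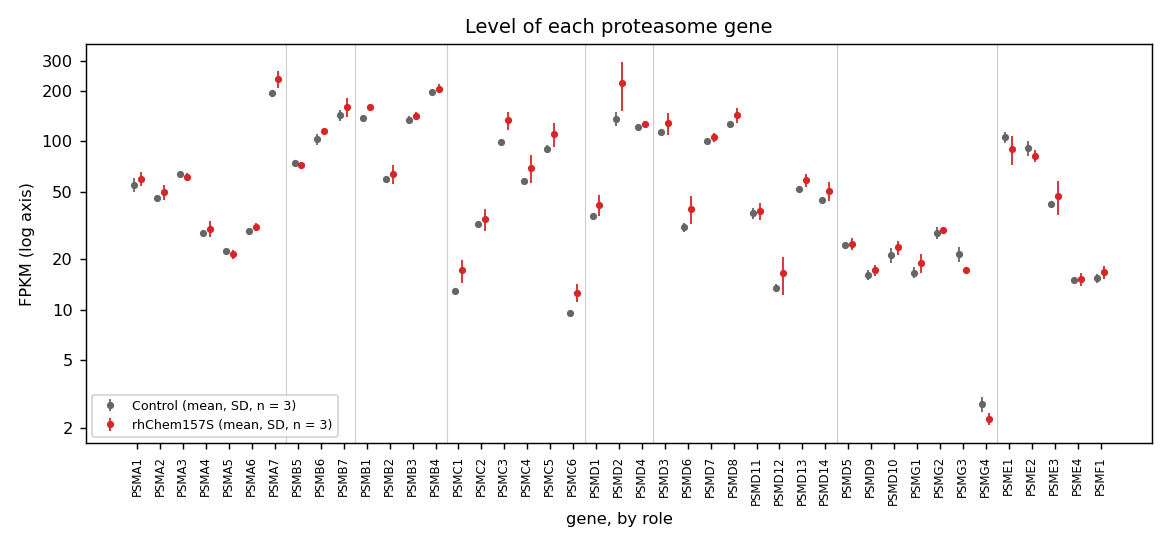
Mean FPKM of the 43 tested proteasome genes, grouped by role, in the Control and rhChem157S groups on a log axis, with bars of 1 SD over 3 libraries. Levels run from PSMG4 at a mean of 2.505 FPKM over all libraries to PSMA7 at 213 FPKM.

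With rhChem157S, 39 of the 43 tested genes were higher than in Control and 4 were lower, and none passed the test. With library size as the only scaling, 36 were higher and 7 lower. The share of all tested genes above 0 with TMM scaling was 51.7%. By level it was 61.3% from 10 to 30 FPKM, 70.2% from 30 to 100 FPKM and 84.1% above 100 FPKM. Those levels hold 13, 16 and 13 of the 43 genes. The median log2 fold change of the proteasome genes was 0.25, beside 0.01 over all genes tested. In edgeR (quasi-likelihood fit, p adjusted by Benjamini-Hochberg across 13311 genes), 0 of the 43 had an adjusted p under 0.05, and the smallest was 0.0948, for PSMB1. The same test called 0.0301% of all genes, or 4 genes. At an unadjusted p under 0.05, 18 of the 43 were higher and 0 were lower, beside 11.4% of all tested genes higher and 11.4% lower. DESeq2 called 5 of the 43, PSMB1, PSMC1, PSMC3, PSMC6 and PSMD2, all higher, where it called 3.90% of all genes higher and 5.47% lower. The number of calls depended on which libraries were included. edgeR called 5 of the 43 without rhChem157S replicate 1 and 3 without replicate 3, and 0 without any other library. DESeq2 called 18, 4 and 7 without rhChem157S replicate 1, 2 or 3. Without Control replicate 1, 2 or 3 it called 1, 0 and 1.

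Groups that did not overlap were counted as a second description, with every rhChem157S library above or below every Control library. In 25 of 43 proteasome genes all rhChem157S values lay above all Control values, and in 0 they lay below. Among all tested genes 16.5% were fully above and 16.0% fully below. These counts depended on the scaling. When only library size was used, as in FPKM, the median of all genes was -0.12 and that of the proteasome genes 0.12, and 11 of the 43 did not overlap. The share of all tested genes fully above Control was then 7.35%. Of the 11, PSMA7, PSMB1, PSMC1, PSMC3, PSMC4, PSMC6, PSMD2, PSMD6 and PSMD13 lay fully above Control and PSMG3 and PSMG4 fully below. The proteasome median exceeded that of all genes by 0.24 with either scaling.

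The level of a gene moved with the count. Among tested genes above 100 FPKM, 55.2% had rhChem157S fully above Control and the median log2 fold change was 0.25. The 13 proteasome genes at that level had a median of 0.31, and 11 did not overlap. Between 30 and 100 FPKM the background was 31.1% and 0.12, and 8 of 16 proteasome genes with a median of 0.24 did not overlap. From 10 to 30 FPKM it was 20.3% and 0.06, and for the 13 proteasome genes the values were 6 genes and 0.23. The part of expression level in the proteasome result was not tested.

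**Figure D2:**
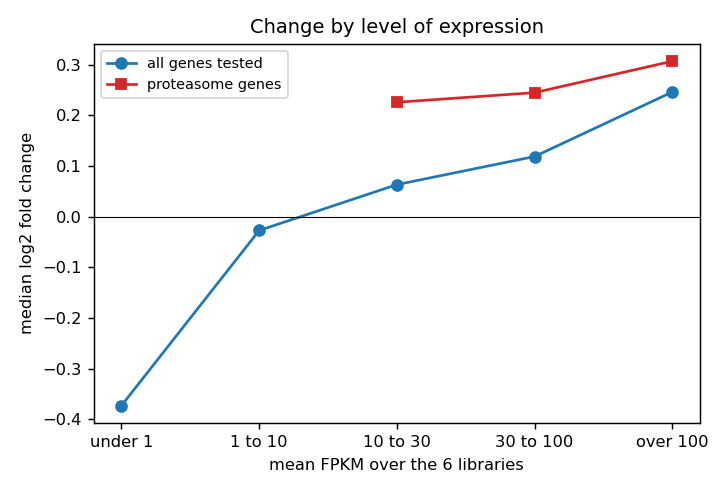
Median log2 fold change, rhChem157S over Control, by bin of mean FPKM for all tested genes and for the proteasome genes. Above 100 FPKM the medians were 0.25 and 0.31, and from 10 to 30 FPKM they were 0.06 and 0.23.

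rhChem157S replicate 3 stood apart from the other treated libraries. Relative to the Control mean, the median of the proteasome genes on the log2 scale was -0.02, 0.01 and 0.02 in Control and 0.08, 0.20 and 0.46 with rhChem157S. Of the 43 genes, 37 were highest in rhChem157S replicate 3, beside 34.1% of all tested genes. Above every Control library lay 28, 36 and 39 genes in rhChem157S replicates 1, 2 and 3, beside 32.0, 34.8 and 41.2% of all tested genes. Without replicate 3 the median fold change was 0.15, 38 of 43 genes were higher, and 25 lay fully above Control, beside 22.0% of all tested genes. In 32 of the 43 genes the log2 fold change moved toward 0 by over 1.5 times without it, and PSMA3 turned to -0.02. The proteasome genes together took 0.48, 0.49 and 0.50% of all counts in Control and 0.51, 0.54 and 0.63% with rhChem157S, so that the groups did not overlap.

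**Figure D3:**
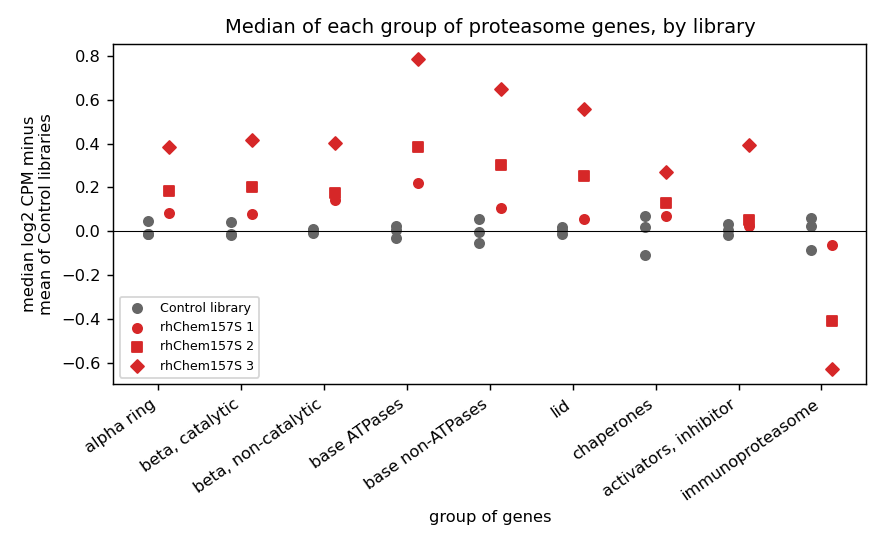
Median log2 level of each role of the proteasome genes, and of the immunoproteasome genes, in every library, relative to the Control mean. The median of all 43 proteasome genes, not drawn, was -0.02 to 0.02 in Control and 0.08, 0.20 and 0.46 with rhChem157S.

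The 31 genes that build the 26S particle itself were all higher with rhChem157S by TMM scaling (28 of 31 with library size alone, where PSMA3, PSMA5 and PSMB5 were lower). The median log2 fold change of the 31 was 0.30 by TMM scaling, and 22 did not overlap. All 22 lay fully above Control, beside 16.5% of all tested genes. That share also stands beside the counts by role below, and the shares by level are given above. With library size alone 9 of the 31 lay fully above, beside 7.35% of all tested genes. None of the 31 passed the edgeR test after adjustment. The 12 tested genes outside the structure had a median of 0.18, 8 higher and 4 lower, and 3 did not overlap (with library size alone 2, both fully below Control). Within the particle, the cap had a median of 0.37 over 17 genes and the core 0.23 over 14, given here as a description, and all 17 cap genes were higher with either scaling. Library by library, the mean FPKM of the cap over that of the core was 0.701, 0.723 and 0.719 in Control and 0.711, 0.784 and 0.869 with rhChem157S (exact permutation test, two-sided, p = 0.30, adjusted p = 0.42 over 7 ratios). These groups overlap, so the ratio did not separate them. The smallest p that 3 against 3 libraries allow is 0.10.

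**Figure D4:**
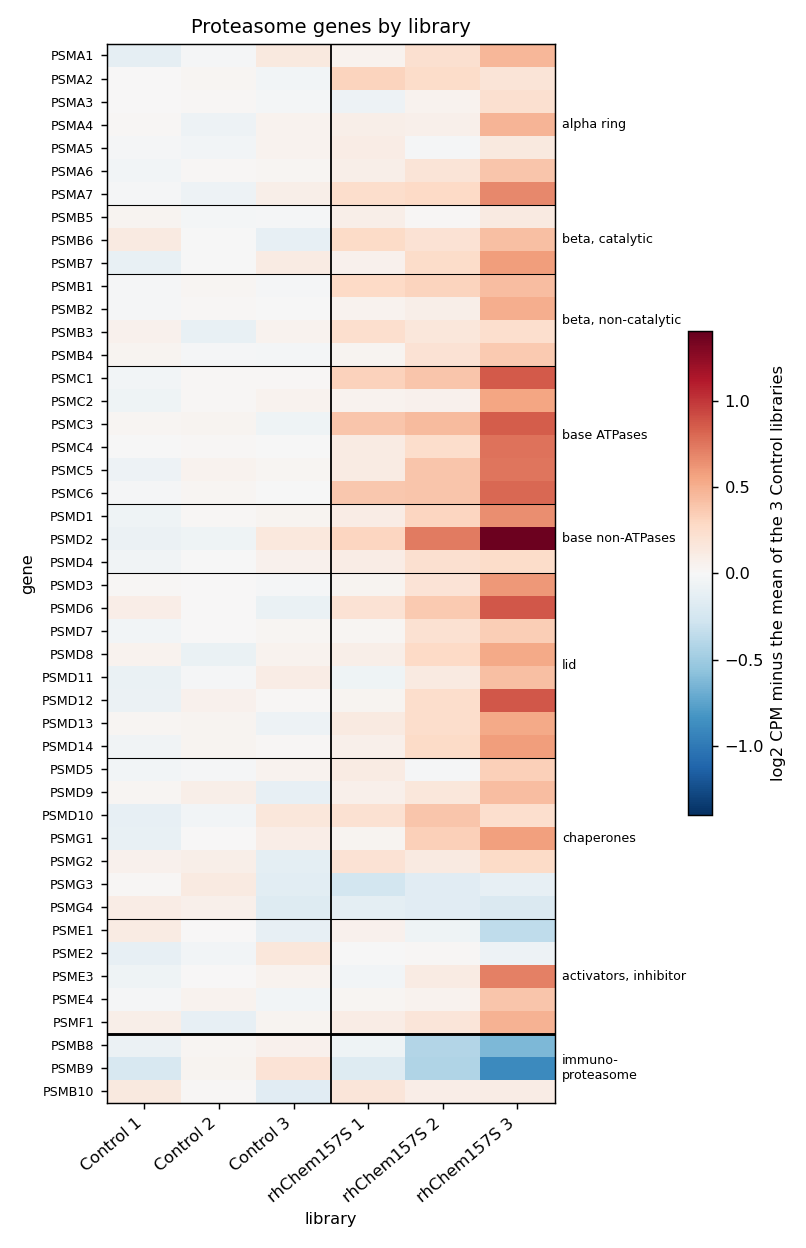
Log2 level of each tested proteasome gene in each of the 6 libraries relative to its Control mean, in rows by role, with the 3 immunoproteasome genes at the bottom. The genes of the 26S are mostly highest in rhChem157S replicate 3, as are 37 of all 43.

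The 6 ATPase genes of the cap had the highest median of any role, 0.49, and 5 did not overlap (4 with library size alone). Values per library are CPM, counts scaled to library size with the TMM factors. PSMC3 had 149, 149.96 and 139.5 CPM in Control and 191, 198 and 262 CPM with rhChem157S. Its log2 fold change was 0.57 (SE 0.13, edgeR adjusted p = 0.0954, DESeq2 adjusted p = 0.00575). All 3 treated libraries stood above the Control libraries, and replicate 3 was the highest. PSMC1 had 71.7, 74.5 and 74.6 CPM in Control and 92.2, 96.0 and 134 CPM with rhChem157S, a log2 fold change of 0.54 (SE 0.15, edgeR adjusted p = 0.118). Its exons share 4671 of 6161 bases with NRDE2 on the opposite strand, and 13 pseudogenes are named after it. The counts of PSMC1 are thus uncertain where the counting ignored strand or placed reads on a copy. NRDE2 itself was -0.29 on the log2 scale (SE 0.15, edgeR adjusted p = 0.291), the opposite direction. PSMC6 had 33.2, 34.4 and 33.6 CPM in Control and 44.0, 44.1 and 59.0 CPM with rhChem157S, with a log2 fold change of 0.54 (SE 0.13, edgeR adjusted p = 0.105). The 3 treated libraries were above all Control libraries, at low level for the role. PSMC5 had 128, 139 and 137 CPM in Control and 146, 176 and 227 CPM with rhChem157S. PSMC4 had 97.0, 98.0 and 96.6 CPM in Control and 105, 115 and 165 CPM with rhChem157S. Both were fully above Control. PSMC2 had 83.7, 88.5 and 90.3 CPM in Control and 90.2, 91.5 and 128 CPM with rhChem157S, which overlapped.

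PSMD2 had the largest log2 fold change of the 43, 0.86 (SE 0.25, edgeR adjusted p = 0.129, DESeq2 adjusted p = 0.0116), with 369, 376 and 434 CPM in Control and 483, 649 and 1013 CPM with rhChem157S. Replicate 3 of rhChem157S was far above the others, and without it the log2 fold change was 0.52. Its partner in the base, PSMD1, had 143, 149 and 153 CPM in Control and 159, 183 and 232 CPM with rhChem157S. The ubiquitin receptor PSMD4 had 146, 151 and 158 CPM in Control and 163, 176 and 181 CPM with rhChem157S. In both genes every treated library was above Control. PSMD2 over PSMD1, by FPKM, was 3.72, 3.61 and 4.08 in Control and 4.36, 5.10 and 6.26 with rhChem157S (exact permutation test, two-sided, p = 0.10, adjusted p = 0.233 over 7 ratios), which is the smallest p this design allows. The ratio was chosen after the values were seen.

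The 8 lid genes, which include PSMD14, the enzyme that takes ubiquitin off the substrate, had a median of 0.31, and 5 did not overlap (2 with library size alone). PSMD6 had 52.7, 49.7 and 46.3 CPM in Control and 57.1, 63.7 and 90.6 CPM with rhChem157S, a log2 fold change of 0.51 (SE 0.17, edgeR adjusted p = 0.158), which was 0.28 without rhChem157S replicate 3. PSMD14 had 64.7, 68.8 and 68.1 CPM in Control and 70.6, 80.6 and 101 CPM with rhChem157S. PSMD8, the highest of the lid by FPKM, had 189, 172 and 189.7 CPM in Control and 195, 223 and 265 CPM with rhChem157S. These 3 genes lay fully above Control. PSMD13 had 84.6, 85.7 and 79.4 CPM in Control and 90.9, 99.0 and 119.9 CPM with rhChem157S. PSMD3 had 237, 235 and 232 CPM in Control and 242, 268 and 358 CPM with rhChem157S. Both were again fully above. PSMD12, the lowest lid gene by FPKM, had 59.9, 66.2 and 64.4 CPM in Control and 65.3, 75.5 and 116 CPM with rhChem157S, which overlapped. PSMD7 and PSMD11 also overlapped, at log2 fold changes of 0.20 and 0.17.

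Of the core genes, the 7 of the alpha ring had a median of 0.22, with 4 that did not overlap (1 with library size alone). PSMA7 had 176, 169 and 187 CPM in Control and 210.1, 215 and 283 CPM with rhChem157S, a log2 fold change of 0.41 (SE 0.13, edgeR adjusted p = 0.137). PSMA2 had 63.2, 64.0 and 61.4 CPM in Control and 78.3, 75.4 and 71.1 CPM with rhChem157S. PSMA6 had 76.2, 79.1 and 79.9 CPM in Control and 83.0, 89.2 and 102 CPM with rhChem157S. All were fully above Control. PSMA4 was also fully above, with 124, 117 and 126 CPM in Control and 129, 128 and 170.2 CPM with rhChem157S. PSMA5 had 80.1, 79.3 and 84.2 CPM in Control and 87.5, 80.1 and 88.9 CPM with rhChem157S, and its groups overlapped. PSMA1 and PSMA3 also overlapped, at log2 fold changes of 0.25 and 0.07. Scaled by library size alone, PSMA3 and PSMA5 were lower with rhChem157S, PSMA5 at a log2 fold change of -0.055.

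In the beta ring the 4 genes without catalytic activity were all fully above Control by TMM scaling, and only PSMB1 was with library size alone. PSMB1 had 116, 120.2 and 117 CPM in Control and 142, 146 and 159 CPM with rhChem157S, and it gave the smallest p of the 43 (log2 fold change 0.34, SE 0.08, edgeR adjusted p = 0.0948, DESeq2 adjusted p = 0.0102). PSMB3 had 102, 91.2 and 101 CPM in Control and 115, 109 and 115 CPM with rhChem157S. PSMB4 had 175, 169.6 and 169 CPM in Control and 176, 196 and 221 CPM with rhChem157S and was the highest of the 7 by FPKM. PSMB2 had 257, 262 and 258 CPM in Control and 269, 274 and 370.3 CPM with rhChem157S and was the lowest of the 4 by FPKM. With TMM scaling the treated libraries of these genes did not overlap with Control, although no gene passed the adjusted edgeR test. Of the catalytic genes, PSMB6, the caspase-like subunit, was fully above Control with 90.3, 82.7 and 76.5 CPM in Control and 100.1, 95.6 and 111 CPM with rhChem157S. PSMB7, the trypsin-like subunit, had 125, 133 and 144 CPM in Control and 139, 160.2 and 201 CPM with rhChem157S. PSMB5, the chymotrypsin-like subunit, had 91.5, 87.3 and 87.7 CPM in Control and 93.7, 89.9 and 97.1 CPM with rhChem157S. Both overlapped, and the log2 fold change of PSMB5 was 0.07 with a 95% interval of -0.07 to 0.22. With library size alone as scaling, that of PSMB5 was -0.055.

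**Figure D5:**
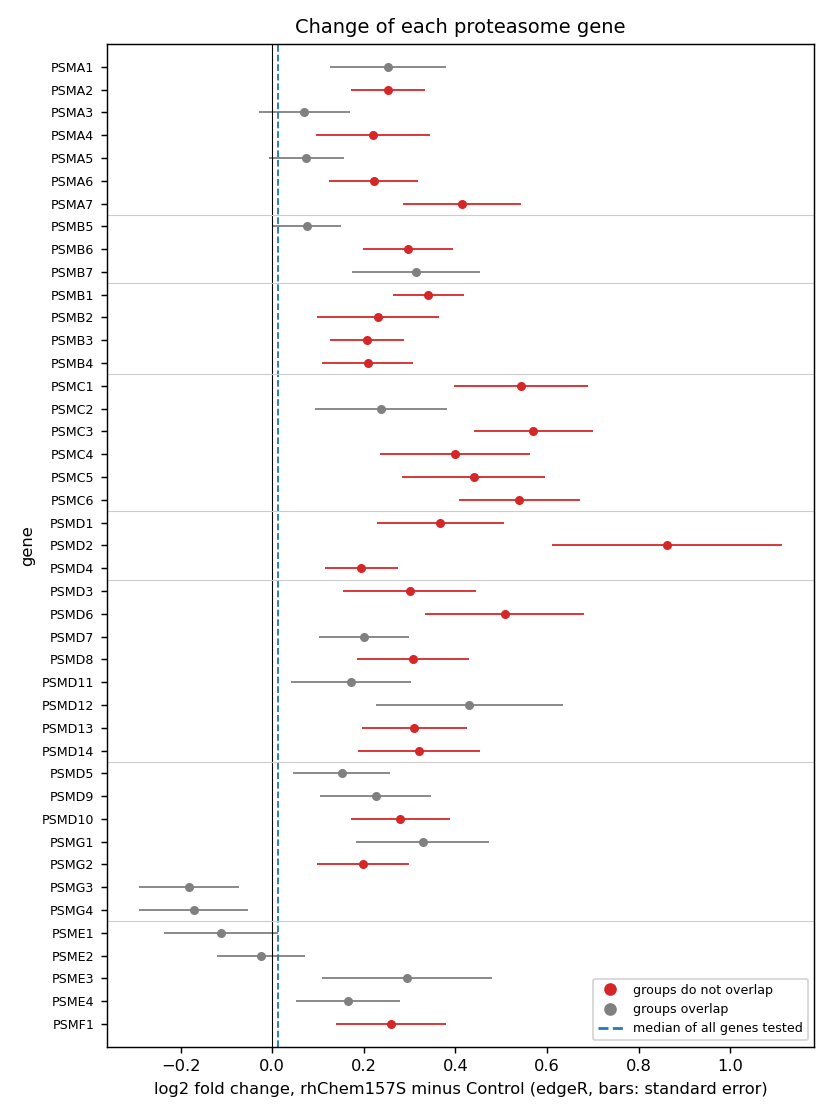
Log2 fold change, rhChem157S over Control, of the 43 tested proteasome genes by role, with bars of the standard error from edgeR (not 95% intervals). With TMM scaling all 31 structural genes lie above 0 (28 with library size alone), from 0.07 for PSMA3 to 0.86 for PSMD2, and PSMG3, PSMG4, PSME1 and PSME2 lie below.

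The 7 assembly chaperones had a median of 0.20, 5 higher and 2 lower, and 2 did not overlap. Of the PSMG genes, PSMG3 had 30.1, 32.4 and 26.7 CPM in Control and 24.8, 26.4 and 27.3 CPM with rhChem157S, a log2 fold change of -0.18 (SE 0.11, edgeR adjusted p = 0.344). PSMG4 had 20.4, 19.9 and 16.8 CPM in Control and 17.3, 17.0 and 16.4 CPM with rhChem157S. Both overlapped, and with library size alone both lay fully below Control. PSMG1 had a log2 fold change of 0.33 with groups that overlapped. PSMG2 had 31.4, 31.7 and 27.3 CPM in Control and 34.6, 32.9 and 36.2 CPM with rhChem157S, fully above Control. Of the chaperones of the cap base, PSMD10 had 27.3, 28.8 and 32.9 CPM in Control and 34.3, 38.8 and 34.9 CPM with rhChem157S, a log2 fold change of 0.28, and did not overlap. PSMD9 and PSMD5 overlapped, at log2 fold changes of 0.23 and 0.15. PSME1 and PSME2 form the interferon-responsive PA28 cap. PSME1 had 106, 98.3 and 90.2 CPM in Control and 102, 94.0 and 76.4 CPM with rhChem157S. PSME2 had 63.9, 67.3 and 77.0 CPM in Control and 68.8, 69.8 and 66.0 CPM with rhChem157S. Their values overlapped, at log2 fold changes of -0.11 (95% interval -0.35 to 0.13) and -0.03 (95% interval -0.21 to 0.16). PSME3, the nuclear member, had a log2 fold change of 0.29, with groups that overlapped. PSME4 had 102, 106 and 100.3 CPM in Control and 104, 106 and 135 CPM with rhChem157S, a log2 fold change of 0.17 (0.03 without rhChem157S replicate 3), and overlapped. PSMF1, the inhibitor, had 129, 113 and 125 CPM in Control and 131, 137 and 171 CPM with rhChem157S, a log2 fold change of 0.26 (0.13 without rhChem157S replicate 3), and was fully above Control.

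The immunoproteasome genes replace the catalytic subunits in cells that see interferon, and their median log2 fold change was -0.35, beside 0.30 for the catalytic genes PSMB5, PSMB6 and PSMB7. PSMB8 was 81.7, 88.1 and 90.1 CPM in Control and 82.8, 65.1 and 56.1 CPM with rhChem157S (log2 fold change -0.35, SE 0.14, edgeR adjusted p = 0.21). PSMB9 was 44.0, 52.8 and 58.6 CPM in Control and 45.6, 38.5 and 27.7 CPM with rhChem157S (log2 fold change -0.47, edgeR adjusted p = 0.204), and PSMB10 24.6, 22.6 and 20.1 CPM in Control and 25.1, 23.9 and 24.0 CPM with rhChem157S (log2 fold change 0.12, edgeR adjusted p = 0.535). In all 3 genes the groups overlapped and none passed the test. With library size alone all 3 were lower, and PSMB8 and PSMB9 lay fully below Control. Within a library, PSMB5 over PSMB8 by FPKM was 1.37, 1.22 and 1.19 in Control and 1.39, 1.70 and 2.12 with rhChem157S. PSMB6 over PSMB9 was 2.47, 1.89 and 1.57 in Control and 2.65, 2.99 and 4.82 with rhChem157S. For both ratios the groups did not overlap (exact permutation test, two-sided, p = 0.10, adjusted p = 0.233 over 7 ratios, chosen after the values were seen). PSMB7 over PSMB10 overlapped (p = 0.50 in the same exact test).

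Most other genes that work with the proteasome were also higher with rhChem157S, with 0 called by edgeR in each list. By TMM scaling 51.7% of all tested genes were higher. At 1 to 10, 10 to 30, 30 to 100 and over 100 FPKM the shares were 46.2, 61.3, 70.2 and 84.1%. The median FPKM was 102 for the ubiquitin list, 61.3 for the shuttle list, 5.06 for the NFE2L1 list and 22.8 for the further parts. The part of expression level in these counts was not tested. The 6 ubiquitin and activating-enzyme genes were all higher with either scaling, with a median of 0.36. RPS27A, a fusion of ubiquitin with a ribosomal protein, had 114, 108 and 95.8 CPM in Control and 145, 142 and 138 CPM with rhChem157S (log2 fold change 0.42, edgeR adjusted p = 0.0869). It was fully above Control. All 12 genes of the shuttle and VCP list, which includes shuttles that bring substrates to the cap, were higher with a median of 0.26 (9 of 12 with library size alone). NBR1 hardly differed, at a log2 fold change of 0.009 (edgeR adjusted p = 0.982), and its groups overlapped. The smallest p values of the list were those of UBQLN2, at a log2 fold change of 0.36 (edgeR adjusted p = 0.0948), and BAG6, at 0.26. The 3 genes of the NFE2L1 list were higher (2 with library size alone). NFE2L1, the transcription factor that drives subunit genes when proteasome activity drops, had 302, 299 and 333 CPM in Control and 382, 424 and 403 CPM with rhChem157S (log2 fold change 0.37, SE 0.09, edgeR adjusted p = 0.101, DESeq2 adjusted p = 0.00832). NGLY1, which takes part in its activation, had 17.2, 15.3 and 14.9 CPM in Control and 15.6, 18.7 and 26.7 CPM with rhChem157S (log2 fold change 0.36, edgeR adjusted p = 0.318), and the groups overlapped. DDI2, the protease of the list, had a log2 fold change of 0.10 (edgeR adjusted p = 0.641), which was -0.03 with library size alone. Of 11 further parts and partners, 9 were higher with a median of 0.21 (8 with library size alone). The smallest p values there were those of ECPAS, at 0.37, and TXNL1, at 0.40.

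Promoters were printed because the subunit genes are known to be controlled together, and because they let the leading gene of the cap be set beside genes with the motifs searched. For each gene the 250 bases before the RefSeq start (GRCh38.p14) are given 5′ to 3′ in lower case. Capitals mark the core of the antioxidant response element, TGACNNNGC, and the CCAAT box, CCAAT, both searched on both strands, and TGACGTCA was searched too. PSMD2 (chr3:184298991-184299240, plus strand) holds none of them, PSMC3 (chr11:47426440-47426689, minus strand) 1 CCAAT box, PSMB3 (chr17:38752491-38752740, plus strand) 1 response element core and 2 CCAAT boxes, and PSMD12 (chr17:67366578-67366827, minus strand) the response element core alone.
PSMD2: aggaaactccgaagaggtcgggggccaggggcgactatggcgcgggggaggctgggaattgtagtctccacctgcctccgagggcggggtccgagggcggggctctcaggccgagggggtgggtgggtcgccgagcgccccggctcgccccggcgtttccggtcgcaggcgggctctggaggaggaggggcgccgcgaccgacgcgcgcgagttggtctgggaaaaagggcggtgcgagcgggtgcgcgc
PSMC3: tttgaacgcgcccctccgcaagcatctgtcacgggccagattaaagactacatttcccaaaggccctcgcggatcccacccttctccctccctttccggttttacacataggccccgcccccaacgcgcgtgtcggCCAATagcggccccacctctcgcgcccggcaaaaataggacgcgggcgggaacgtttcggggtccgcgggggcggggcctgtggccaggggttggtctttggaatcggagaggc
PSMB3: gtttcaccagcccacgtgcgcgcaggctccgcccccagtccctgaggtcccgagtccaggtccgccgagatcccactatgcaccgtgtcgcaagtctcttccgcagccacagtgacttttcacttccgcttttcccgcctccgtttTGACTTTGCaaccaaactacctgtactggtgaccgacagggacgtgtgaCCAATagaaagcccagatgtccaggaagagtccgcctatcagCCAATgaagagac
PSMD12: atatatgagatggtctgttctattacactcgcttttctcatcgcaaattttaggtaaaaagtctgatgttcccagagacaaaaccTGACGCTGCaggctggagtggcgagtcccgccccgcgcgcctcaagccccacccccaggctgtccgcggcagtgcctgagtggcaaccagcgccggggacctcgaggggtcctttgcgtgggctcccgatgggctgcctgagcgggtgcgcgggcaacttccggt
Of the 37 tested genes with a promoter in the RefSeq table, 10 held TGACNNNGC (27.0%, beside 11.9% of 10716 tested genes) and 16 held CCAAT (43.2%, beside 34.9%). Among the 26 of them that build the 26S particle, only 3 held TGACNNNGC and 13 held CCAAT. The other genes with TGACNNNGC, PSMD5, PSMD9, PSME1, PSME2, PSME4, PSMG1 and PSMG2, lie outside that structure. TGACGTCA was in 0 of 37, beside 2.86%. The median log2 fold change was 0.20 for genes with TGACNNNGC against 0.26 for those without it. For CCAAT the medians were 0.29 and 0.23. A match describes letters and shows no binding. The genes themselves lie on 17 chromosomes, PSMD2 at chr3:184299241-184309050, PSMC3 at chr11:47418775-47426439, PSMC6 at chr14:52707200-52728590, PSMC1 at chr14:90256553-90275429 and PSMB1 at chr6:170535120-170553307. In GENCODE 29, 17 of the genes share exon bases with a gene on the other strand, but PSMC1 is the 1 gene that shares most of its exon bases.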

How the data were processed

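RNA-seq libraries of 6 samples, 3 a group, were analysed. The authors trimmed reads (150 bp, paired ends) with fastp, aligned with HISAT2 to GRCh38.p13 and made raw read counts per gene with HTSeq, and they deposited a second table of FPKM. Over 12103 genes, FPKM was found to be the count over a fixed length and the library total. The strand setting and annotation release are not given in the sources used here.

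Counts were tested in R 4.3.3 with edgeR 4.0.16 (TMM, filterByExpr, quasi-likelihood F test, Benjamini-Hochberg over 13311 genes, called at an adjusted p under 0.05). CPM values use TMM. The 95% intervals are the estimate plus or minus 1.96 SE. Scripts were tested on simulated data. Alternatives were DESeq2 1.42.0, edgeR with legacy=FALSE, limma 3.58.1 on log2 FPKM with a pseudocount of 1 or 0.1, RLE and library-size scaling, other filters, a replicate block and leaving out each library. Ratios were compared by exact permutation. Values in every library are given for genes whose groups did not overlap, the 3 genes of smallest p per direction, and the highest and lowest of each role, with a few genes of each pathway list. Some genes of the marker and pathway lists are not reported here. The genes and lists were chosen with earlier results of these data known. Gene positions and promoters come from RefSeq GRCh38.p14, exon overlaps from GENCODE 29. 38 of the 44 genes had a promoter.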

Additional observations from a re-analysis of the deposited data

How the results depend on the processing

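edgeR called 4 genes, DESeq2 1319, edgeR with legacy=FALSE 15, limma 179 on log2(FPKM + 1) and 23 on log2(FPKM + 0.1), and 17 were called with no filter on low counts. Leaving out 1 library gave 0 to 844 genes in edgeR, and between 1666 and 2190 at an unadjusted p under 0.05 where the count was 0. The proteasome genes called were 5 with DESeq2 and 0 to 5 in edgeR without 1 library. Without rhChem157S replicate 1 the 5 were PSMC1, PSMC3, PSMC5, PSMC6 and PSMD2, and without replicate 3 they were PSMC1, PSMC3 and PSMC6. Leaving out libraries in DESeq2 was chosen after seeing the data. Leaving out Control 1, 2 or 3 gave 672, 297 and 515 genes, and rhChem157S 1, 2 or 3 gave 2651, 571 and 1737. The proteasome genes among them were 1, 0, 1, 18, 4 and 7. Proteasome genes whose groups did not overlap numbered 11 with limma at either pseudocount and with library size alone, 9 fully above Control and 2 fully below. Of all tested genes 7.36% (limma) and 7.35% (library size) lay fully above. Without 1 library 26 to 35 proteasome genes did not overlap and 25 to 35 lay fully above, beside 18.5 to 24.4% of all tested genes fully above. The median log2 fold change ran from 0.11 to 0.31 over all alternatives. PSMA3, PSMA5, PSMB5, PSMB10 and DDI2 turned to -0.064, -0.054, -0.055, -0.0068 and -0.021 with limma on log2(FPKM + 1), to -0.065, -0.056, -0.056, -0.0069 and -0.024 with a pseudocount of 0.1, and to -0.064, -0.055, -0.055, -0.0089 and -0.032 with library size alone. Without 1 library, PSME2 ran from -0.080 to 0.057 and DDI2 from -0.016 to 0.16, both reversed without Control replicate 3, and PSMA3 ran from -0.018 to 0.13, reversed without rhChem157S replicate 3. Of 810 alternative values of 54 genes, the 43 tested proteasome genes and 11 named others, 773 kept direction and side of the threshold, 19 passed it and 18 reversed. The cause was not tested. With the replicate number as a block (replicate block), 1 gene and 0 proteasome genes were called, and no call of a proteasome gene changed. Same-numbered libraries correlated at 0.241, 0.00147 and 0.247 in their deviations from the group means, so the numbers were not taken to pair them, and rhChem157S replicate 2 correlated best with Control replicate 3 (0.0243). PSMB11 had too few counts for a value.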
